A study of Homo sapiens with 9 samples.

Results

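The contrast described here is the average of the TTC33 and CCDC97 knock-down groups against control in human HEK293 cells, and the genes it is about are those that moved the same way in every microRNA-expressing library. A gene was counted as a member when its log2 CPM (counts scaled to a common library size) lay on one side of the control mean in all 6 such libraries. Of 37459 genes with any count, 6472 met that condition. A filter on low counts removed 2872 of them, and 3600 of the 18299 tested genes remained, 1824 higher and 1776 lower than control in all 6 libraries.

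The study sequenced total RNA of 9 libraries in 3 groups of 3. All cells were HEK293 Flip-In T-Rex, an embryonic kidney line with a single recombination site for transgenes, and all, controls included, received tetracycline at 100 ng/ml for 3 days. The CCDC97 knock-down cells carried a tetracycline-inducible microRNA against CCDC97 (genotype miCCDC97), and the TTC33 knock-down cells one against TTC33 (miTTC33). The control cells expressed no such introduced microRNA. Whether a line is a single clone is not given in the sources used here. No group with an unrelated microRNA was analysed here, so that depletion of either protein cannot be told apart from expression of any microRNA or from the making of a line in what both lines share. The labels do not say whether replicates are separate cultures, so that p-values rest on the spread among these 9 libraries alone. In bulk RNA, fewer cells of a kind and less RNA per cell cannot be told apart.

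CCDC97 is a coiled-coil protein that associates with the SF3B complex, the part of the spliceosome that recognises the intron branch point, and TTC33 is a tetratricopeptide repeat protein. An artificial microRNA is processed by the cell's own small RNA pathway and lowers the mRNA it pairs with, and can also lower other mRNAs that match its seed. A contrast with the average of both lines therefore holds changes common to both beside large changes of a single line. The requirement on all 6 libraries fixes the direction only, and a member can still be large in 1 line and small in the other.

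Counts in genes ranged from 21764203 to 36110891 per library. Of 13 markers of the HEK293 line tested, the summed level was 1125 to 1442 CPM, against 13.3 to 19.3 for 4 fibroblast markers and 1.22 to 2.41 for 2 keratinocyte or cervical line markers, of which KRT17 was called higher. Blood cell and hepatocyte markers summed to at most 1.56 and 0.51 CPM. In both knock-downs, replicate 1 differed from the others in its relation to GC content, in opposite directions. Among the tenth of genes with the lowest GC content (median 36.7%), the median log2 difference from control was -0.15, 0.16 and 0.15 in replicates 1 to 3 of the CCDC97 line and 0.03, -0.44 and -0.48 in those of the TTC33 line. Across genes, the log2 fold change of the mean contrast had a Spearman correlation of 0.21 with GC content, between 0.46 in the TTC33 line and -0.21 in the CCDC97 line, which share their controls.

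With edgeR's quasi-likelihood test at an adjusted p of 0.05, 809 genes (4.42% of those tested) were called in the mean contrast, 382 higher (2.09%) and 427 lower (2.33%). Of these, 315 were higher (1.72% of tested genes) and 362 lower (1.98%) in all 6 libraries, together 677 genes or 3.7%. They were mostly protein-coding, 570 of the 677, with 84 long noncoding RNAs. The median absolute log2 fold change was 0.46 among these 677 and 0.14 among all tested genes, and 101 of the 677 changed at least 2-fold, 85 higher and 16 lower. All 6 libraries lay above every control library for 973 genes (5.32% of those tested) and below every one for 972 (5.31%), of which 278 and 337 were called. Fits that left out control replicate 1, 2 or 3 called 153, 143 and 170 genes in place of 809. Without CCDC97 knock-down replicate 1, 2 or 3 the number was 1147, 512 and 505, and without TTC33 knock-down replicate 1, 2 or 3 it was 3525, 405 and 495. Without replicate 1 of both lines, 1752 genes were called and higher and 1704 called and lower, among them 314 of the 315 and all 362 of the 362 above. The direction was there asked of the remaining 4 libraries only, a looser condition than that on all 6.

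The sizes in the lines often differed. The test of each line against the shared controls called 2186 genes in the TTC33 knock-down (11.9%, with 6.5% higher and 5.44% lower) and 835 in the CCDC97 knock-down (4.56%, with 2.07% higher and 2.49% lower). A direct test of TTC33 against CCDC97 knock-down, in which control libraries enter only through the estimate of spread, called 21.5% of all genes (11.3% higher and 10.2% lower in the TTC33 line) and 235 of the 677, 139 with the larger change in the TTC33 and 96 in the CCDC97 knock-down. The other 442 did not pass, which does not show that the lines were equal. A gene called in the mean contrast also need not pass against control in each line alone. Of the 132 called genes outside the common direction, 131 differed between the lines. The plot of both lines' fold changes shows most of these along an axis and the 677 in the upper right and lower left.

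**Figure D1:**
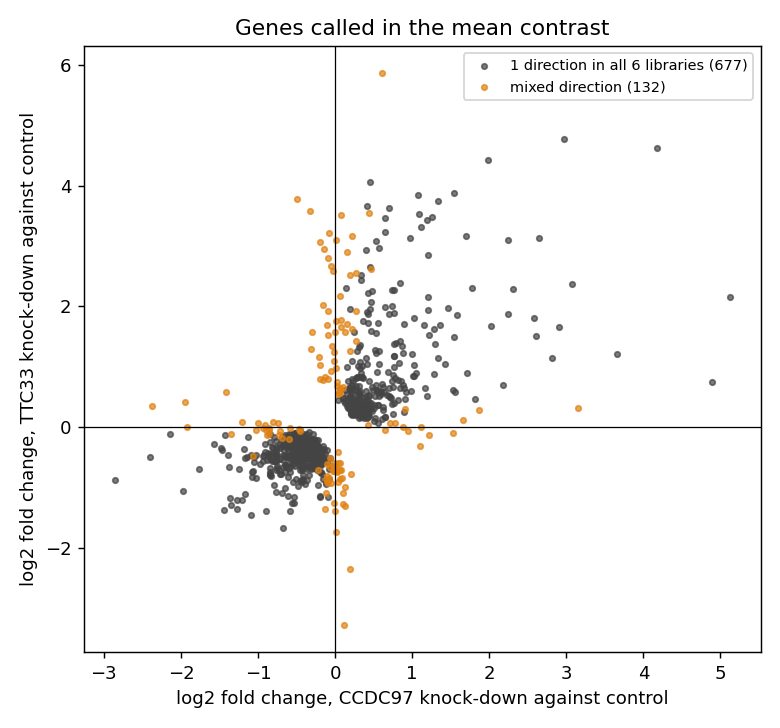
Log2 fold change against control in the CCDC97 (x axis) and TTC33 (y axis) knock-downs for the 809 genes called in the mean contrast; each point is a gene, and both axes share the 3 control libraries. The 677 genes with 1 direction in all 6 libraries (grey) fill the quadrants of like sign, which their choice fixes, while most of the 132 others (orange) lie near an axis.

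Both targeted mRNAs illustrate the difference. TTC33 (ENSG00000113638) stood at 37.6, 37.1 and 38.6 CPM in controls, at 9.66, 6.41 and 6.15 CPM in its own knock-down and at 29.9, 52.4 and 47.0 CPM in the CCDC97 knock-down. CCDC97 (ENSG00000142039) stood at 60.5, 60.1 and 59.4 CPM in controls, at 15.8, 15.3 and 15.7 CPM in its own knock-down and at 65.0, 81.2 and 95.7 CPM in the TTC33 knock-down. Each was low only in its own line, so neither is a common gene, although both were called in the mean contrast (-1.08 ± 0.17 SE, edgeR adjusted p = 0.00629, and -0.76 ± 0.10, adjusted p = 0.00246). PHF5A, an SF3B subunit, and WDR61, a subunit of the PAF1 and SKI complexes, had mean log2 fold changes of 0.04 ± 0.06 and 0.03 ± 0.08 (adjusted p = 0.747 and 0.829).

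Other genes outside the common set were of the same kind. LINC00632, a long noncoding RNA, had a log2 fold change of 3.07 in the TTC33 and -0.19 in the CCDC97 knock-down, and CYB5R3, a cytochrome b5 reductase, 0.35 and -2.38. CPLX1, a complexin that binds the SNARE complex of synaptic vesicles, had 2.03 and -0.16, and FAM3C, a secreted protein, -1.73 and 0.01. CPLX2, the other complexin, missed the condition narrowly. It stood at 1.08, 1.12 and 1.05 CPM in controls, 12.1, 12.6 and 13.2 in the TTC33 and 1.84, 1.52 and 0.97 in the CCDC97 knock-down, where only replicate 3 lay below the control mean.

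AMOT was lowered to a like extent in both lines. It encodes angiomotin, a junctional scaffold that binds the coactivator YAP of the Hippo pathway, and lies on chromosome X (GRCh38, 112774503 to 112840815, minus strand; ENSG00000126016). Controls gave 406, 403 and 399 CPM, the CCDC97 knock-down 180.3, 157 and 164 CPM and the TTC33 knock-down 168, 155 and 150.1 CPM. All 6 libraries thus lay far below all controls, where the rule that chose the gene required only that they lie below, and the lines overlapped. In the mean contrast it fell by 1.31 ± 0.06 on the log2 scale (SE; adjusted p = 2.6e-06 by edgeR), with -1.35 in the TTC33 and -1.27 in the CCDC97 knock-down. The difference between the lines, -0.09, had a 95% interval of -0.24 to 0.07 (adjusted p = 0.394). The call held in all 9 fits that left out a library and when both lines were treated as 1 group of 6, so that the spread between lines counts (adjusted p = 1.44e-05).

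SFRP1, a secreted antagonist of Wnt ligands, stood at 34.0, 30.9 and 33.2 CPM in controls, 20.7, 18.1 and 18.7 in the CCDC97 and 16.9, 13.8 and 15.9 in the TTC33 knock-down (mean log2 fold change -0.92 ± 0.08, adjusted p = 0.000191). ULK2, a kinase that starts autophagy, stood at 17.5, 17.8 and 17.5 CPM in controls, 10.1, 10.5 and 10.3 in the CCDC97 and 11.3, 10.1 and 10.9 in the TTC33 knock-down (-0.74 ± 0.07, adjusted p = 0.000287). For both genes the groups did not overlap with controls, which the rule that chose them fixes. The interval of the difference between lines was -0.52 to -0.08 for SFRP1 (adjusted p = 0.0517) and -0.12 to 0.25 for ULK2 (adjusted p = 0.615).

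STXBP6, which binds SNARE proteins, fell from 9.94, 10.7 and 11.3 CPM to 6.68, 5.54 and 5.56 in the CCDC97 and 7.61, 5.51 and 5.24 in the TTC33 knock-down (-0.82 ± 0.12, adjusted p = 0.00496). ACADSB, a mitochondrial dehydrogenase of branched short-chain acyl-CoA, fell by 0.60 on the log2 scale in the mean and in the CCDC97 knock-down and by 0.59 in the TTC33 knock-down (adjusted p = 0.00182), with an interval of the difference of -0.19 to 0.20. TTC39B, a regulator of lipid metabolism, fell by 0.89 on the log2 scale, ELOVL7, a very long-chain fatty acid elongase, by 0.71, ACSL4, an acyl-CoA synthetase that prefers polyunsaturated fatty acids, by 0.72, and EIF1AX, a factor in start codon selection, by 0.87 (adjusted p = 0.0022, 0.0237, 0.00949 and 0.0147). ELOVL7, ACSL4 and EIF1AX each lost the call when control replicate 1, 2 or 3 was left out. EIF1AX spread over 117 to 207 CPM in the TTC33 and 170.3 to 241 CPM in the CCDC97 line, below the 325 to 335 CPM of controls. Its change did not pass in the CCDC97 line alone (adjusted p = 0.0992 by edgeR).

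The last 3 of the 12 genes lowered most in both lines lie on chromosome 21: LRRC3, VPS26C and CBS. VPS26C, a subunit of the retriever complex that recycles endosomal cargo, stood at 51.7, 48.6 and 49.6 CPM in controls, 30.5, 31.3 and 34.3 in the CCDC97 and 33.5, 28.7 and 34.7 in the TTC33 knock-down (-0.64 ± 0.08, adjusted p = 0.00137). LRRC3, a leucine-rich repeat membrane protein, fell by 0.82 (adjusted p = 0.00402). CBS, cystathionine beta-synthase of the transsulfuration pathway, fell by 1.02 (adjusted p = 0.000723), by 0.66 in the TTC33 and 1.38 in the CCDC97 knock-down, and was the only one of the 12 called different between the lines (adjusted p = 0.00624). CBS has a near-identical annotated copy, CBSL, with which its reads may be shared. Of the 12, 9 were called in all 9 fits without a library and 7 with both lines as 1 group of 6.

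**Figure D2:**
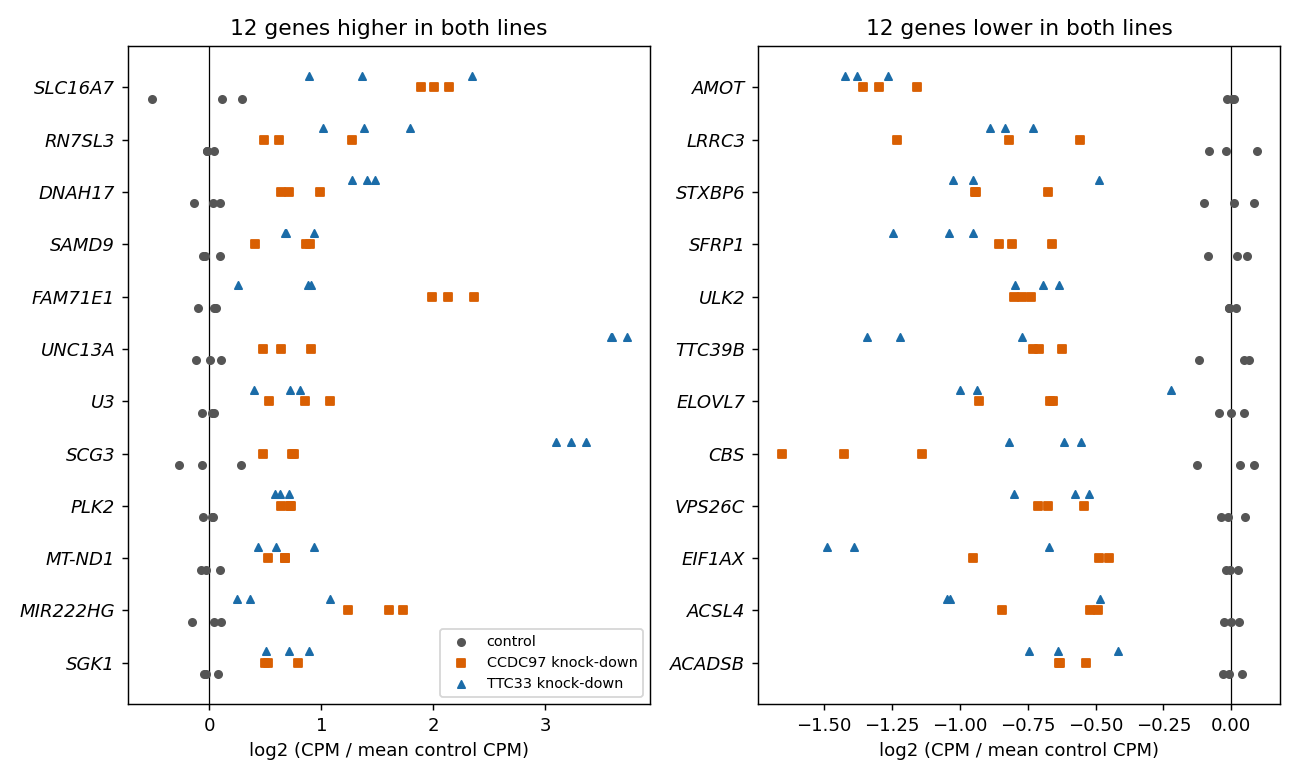
The 12 genes higher (left) and lower (right) in both lines, as log2 of CPM over the mean control CPM (x axis) in each of 9 libraries: controls as circles, CCDC97 knock-down as squares and TTC33 knock-down as triangles. Every knock-down library lies on 1 side of all controls, which the choice of genes fixes; UNC13A and SCG3 are far higher in the TTC33 and FAM71E1 in the CCDC97 knock-down.

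Among the 12 genes raised most in both lines, sizes varied more. PLK2, a polo-like kinase induced by p53 and by activity, stood at 10.9, 11.5 and 11.5 CPM in controls, 18.8, 18.6 and 17.6 in the CCDC97 and 18.5, 16.97 and 17.5 in the TTC33 knock-down. All 6 libraries lay close together and above all controls, the latter fixed by the choice of genes (0.67 ± 0.07, adjusted p = 0.00068; difference between lines -0.05, interval -0.23 to 0.12). SLC16A7, the monocarboxylate transporter MCT2, stood at 2.18, 1.41 and 2.47 CPM in controls, 7.49, 8.12 and 8.94 in the CCDC97 and 10.3, 5.2 and 3.75 in the TTC33 knock-down (1.85 ± 0.30, adjusted p = 0.00777). It rose in both, with a wide spread in the TTC33 line, and lost the call without control replicate 1 (adjusted p = 0.0534) or 2 (0.0613).

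SAMD9, an interferon-inducible antiviral factor, rose by 0.76 ± 0.12 and SGK1, a kinase downstream of PI3K and glucocorticoids, by 0.66 ± 0.11 (adjusted p = 0.00664 and 0.00949), with near-equal changes in the TTC33 (0.77 and 0.71) and CCDC97 (0.74 and 0.61) knock-downs. SAMD9 lost the call without control replicate 1 or 3 and SGK1 without any 1 of the 3 controls. DNAH17, an axonemal dynein heavy chain, rose in both lines, by 1.39 in the TTC33 and 0.79 in the CCDC97 knock-down, a difference that passed the test (adjusted p = 0.00481). DNAH17 shares 1474 exon bases with DNAH17-AS1 on the other strand, and since the strand setting of the counting is not given, their reads may not be separate.

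UNC13A, the Munc13-1 vesicle priming factor, stood at 2.35, 2.01 and 2.19 CPM in controls, 4.1, 3.4 and 3.05 in the CCDC97 and 26.3, 26.4 and 28.9 in the TTC33 knock-down. Every knock-down library was higher, yet the log2 fold change was 3.64 in the TTC33 and 0.70 in the CCDC97 line (difference 2.94 ± 0.12, adjusted p = 4.52e-07). SCG3, secretogranin III of dense-core granules, had 3.23 and 0.65, of which the second did not pass the test against control (adjusted p = 0.0552). FAM71E1 had the opposite order, 0.71 in the TTC33 and 2.17 in the CCDC97 knock-down (adjusted p for the difference = 0.000293); it shares 324 exon bases with EMC10 on the other strand. Of the 12 raised genes, 5 differed between the lines, 5 were called in all 9 fits without a library and 3 (PLK2, SAMD9 and MT-ND1) with both lines as 1 group of 6.

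MIR222HG, the host transcript of miR-221 and miR-222, was among the 12 raised most. A host transcript carries the hairpins from which mature microRNAs are cut, and a microRNA recognises mRNAs mainly through its seed. The 3p arms of miR-221 and miR-222 share their seed, so they are shown together with that of miR-22, whose host MIR22HG was the other such gene called in 1 direction; bases 2 to 8, the seed, are in capitals (RefSeq, GRCh38.p14).
hsa-miR-221-3p: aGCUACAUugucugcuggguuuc
hsa-miR-222-3p: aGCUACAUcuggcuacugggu
hsa-miR-22-3p: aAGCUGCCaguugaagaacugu

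The first pair lies on the minus strand of chromosome X (45746180 to 45746202 and 45747036 to 45747056), the last on the minus strand of chromosome 17 (1713914 to 1713935). Mature microRNAs were not measured. MIR222HG stood at 4.83, 5.03 and 4.21 CPM in controls, 11.1, 15.6 and 14.3 in the CCDC97 and 9.92, 5.58 and 6.04 in the TTC33 knock-down. It rose in the mean by 1.08 ± 0.19 (adjusted p = 0.0109) and lost this call without any 1 of the 3 controls. The log2 fold change was 1.54 in the CCDC97 knock-down and 0.62 in the TTC33 knock-down, of which the second did not pass (adjusted p = 0.0804). MIR22HG had the opposite order, 0.53 in the CCDC97 (adjusted p = 0.0596) and 1.23 in the TTC33 knock-down (mean 0.88 ± 0.12, adjusted p = 0.00367), and kept its call in all 9 fits. Of 18 host transcripts tested, these 2 (11.1%) were called higher in all 6 libraries and none lower. Of all tested genes, 1.72% were called higher and 1.98% lower in this way. Another host, 1 of the 18, was called in mixed direction. Leaving out a library gave 1 to 2 higher and 0 to 2 lower hosts. None of 14 genes of microRNA biogenesis and Argonautes was called by edgeR in the mean contrast, against 4.42% of all tested genes. Their median log2 fold change was -0.06. Among these 14, 3 had an unadjusted p under 0.05, and DESeq2 called 2. Over the fits without 1 library, 0 to 2 were lower.

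A pair of genes below the abundance asked of those 24, at least 5 CPM on average, changed more than any of them and was picked after its values were seen. NECTIN3, a cell adhesion molecule of adherens junctions, stood at 1.13, 1.31 and 0.67 CPM in controls, 4.59, 5.54 and 4.74 in the CCDC97 and 11.6, 7.93 and 7.45 in the TTC33 knock-down. NECTIN3-AS1, a noncoding RNA on the other strand whose gene overlaps its start, stood at 0.14, 0.08 and 0.19 CPM in controls, 2.44, 2.57 and 2.46 in the CCDC97 and 3.79, 3.22 and 3.21 in the TTC33 knock-down. Both were far above controls in every knock-down library (2.67 ± 0.22, adjusted p = 0.000115, and 4.40 ± 0.22, adjusted p = 4.1e-06), and both were called with the lines as 1 group of 6 (adjusted p = 0.0143 and 6.8e-05). Reads of the overlapping pair may not be separate.

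Gene groups were described by lists of members, with no test of a list. Exons on the other strand also overlap those of WDR61, VPS26C, COL18A1, COL4A3, THBS1, CCN2, PCDHB2, SYP, EPHA4, EPHA5, DUSP6, CDKN1A, RPL32 and LINC00632, so their reads may include those of the partner. The share of all tested genes called in 1 direction was 1.72% higher and 1.98% lower, and the median log2 fold change over all tested genes was -0.00012. Counts of list members in other fits stand beside other totals. Of all tested genes, 57 to 1045 were called higher and 61 to 1159 lower without 1 library. By DESeq2 601 and 598 of 18299 were called. With a correction for GC content and length (GC correction) it was 1725 and 1510 of 18299. Without replicate 1 of both lines it was 1752 and 1704 of 18764.

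Of 31 targets of p53, the factor that arrests damaged cells, 5 were called higher (16.1%) and none lower, and 26 did not pass. The median log2 fold change of the list was 0.16. CDKN1A, the p21 inhibitor of cyclin-dependent kinases, stood at 32.7, 31.7 and 36.1 CPM in controls, 54.5, 48.6 and 44.0 in the CCDC97 and 48.6, 52.4 and 51.7 in the TTC33 knock-down (0.58 ± 0.08, adjusted p = 0.00373). PLK2 and the death receptors EDA2R (0.48 ± 0.09, adjusted p = 0.0129) and TNFRSF10B rose as well, as did the transcriptional coregulator SERTAD1. TNFRSF10D, a decoy receptor for TRAIL outside the list and chosen after its values were seen, rose by 0.52 in the mean, the TTC33 and the CCDC97 knock-down (adjusted p = 0.00117). Leaving out a library gave 2 to 9 higher p53 targets. Of 21 heat shock and chaperone genes, 2 were higher (9.52%), DNAJA1 and HSPA8, the constitutive HSP70 (0.34 ± 0.08, adjusted p = 0.0307), with a range of 0 to 6 without a library. HSPA8 has processed copies that can share its reads and lost its call in 7 of the 9 fits.

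Of 36 immediate early genes, transcribed within minutes of a growth signal, 7 were higher (19.4%) and none lower, with a median of 0.16. DUSP6, a phosphatase of ERK, stood at 11.7, 10.7 and 11.2 CPM in controls, 15.8, 19.8 and 19.2 in the CCDC97 and 16.5, 15.2 and 15.6 in the TTC33 knock-down (0.60 ± 0.09, adjusted p = 0.00515; 0.0543 without control replicate 2). EGR1, a zinc finger factor, rose by 0.82 ± 0.13 (adjusted p = 0.00683), with 1.33 in the TTC33 and 0.31 in the CCDC97 knock-down. The change in the CCDC97 line did not pass (adjusted p = 0.273 by edgeR). CCDC97 replicate 2, at 7.19 CPM, lay inside the control range of 6.8 to 7.48. FOSB, FOSL2, KLF4, CCN1 and CCN2 made up the rest. Leaving out a library gave 0 to 9 such genes.

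CCN2 and CCN1, matricellular proteins whose genes are widely used readouts of YAP, were also counted in the matrix list with thrombospondin THBS1. CCN2 stood at 1.96, 2.01 and 2.41 CPM in controls, 3.89, 4.09 and 5.12 in the CCDC97 and 3.92, 3.71 and 5.47 in the TTC33 knock-down, and its log2 fold change was 1.03 in the mean, the TTC33 and the CCDC97 knock-down (SE of the mean 0.16, adjusted p = 0.00629). THBS1 rose from 2.82, 2.85 and 2.57 CPM to 4.91, 5.81 and 6.04 in the CCDC97 and 5.26, 4.19 and 5.39 in the TTC33 knock-down (0.93 ± 0.12, adjusted p = 0.0026), and CCN1 by 0.39 ± 0.08 (adjusted p = 0.0208). All 3 were above all controls in every knock-down library. THBS1 held its call in all 9 fits, CCN2 lost it without control replicate 1 or 2, and CCN1 without any control or TTC33 replicate 2. Of the 34 genes of the list, 3 were higher (8.82%) and 2 lower (5.88%), the laminin chains LAMA1 (-0.37 ± 0.07, adjusted p = 0.0153) and LAMA3. Leaving out a library gave 1 to 4 higher and 0 to 4 lower.

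Collagens went both ways. Of 30 tested, 2 were higher (6.67%) and 5 lower (16.7%), with 4 more called in mixed directions. COL18A1, the basement membrane collagen that gives rise to endostatin, stood at 60.5, 60.1 and 60.7 CPM in controls, 40.0, 26.7 and 27.9 in the CCDC97 and 35.5, 47.5 and 46.9 in the TTC33 knock-down (-0.71 ± 0.13, adjusted p = 0.0131). It and COL6A2 lie on chromosome 21. COL4A6 and COL4A3, chains of basement membrane collagen IV, fell by 0.32 and 0.37 (adjusted p = 0.0239 and 0.0243), and COL13A1 was the fifth. COL18A1 lost its call without any 1 control, and COL4A6 and COL4A3 without any control or TTC33 replicate 2. COL5A2, a fibrillar collagen, was higher, at 5.16, 5.36 and 5.04 CPM in controls, 17.9, 18.6 and 18.5 in the CCDC97 and 7.13, 7.86 and 6.46 in the TTC33 knock-down (1.14 ± 0.09, adjusted p = 6.94e-05), beside COL8A1. Leaving out a library gave 0 to 8 lower and 1 to 4 higher collagens.

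Of 37 HOX genes, which set position along the body axis, 5 were higher (13.5%) and none lower, with a median of 0.22 in the mean, 0.23 in the TTC33 and 0.25 in the CCDC97 knock-down. HOXC11 stood at 7.7, 7.94 and 8.3 CPM in controls, 24.3, 23.2 and 23.1 in the CCDC97 and 11.3, 12.3 and 12.5 in the TTC33 knock-down (1.07 ± 0.08, adjusted p = 4.27e-05; adjusted p for the difference between lines = 4.5e-05). Its neighbour HOXC10 rose by 0.44 ± 0.09 (adjusted p = 0.0207), with 0.41 in the TTC33 and 0.46 in the CCDC97 knock-down, and HOXA10 by 0.31 ± 0.07 (adjusted p = 0.0239). HOXA10 did not pass in the TTC33 line alone (0.19, adjusted p = 0.109 by edgeR). HOXC6 and HOXD13 were the others. HOXC11 kept its call in all 9 fits, whereas HOXC10 lost it in 5 and HOXA10 in 7, and the number of higher HOX genes ran from 1 to 16. HOXA10 shares 608 exon bases with HOXA10-AS on the other strand.

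Clustered protocadherins, adhesion molecules whose isoforms are chosen by promoter, gave 4 higher of 26 (15.4%) and none lower, with a median of 0.28. PCDHB2 stood at 0.97, 1.17 and 0.95 CPM in controls, 2.93, 2.41 and 2.13 in the CCDC97 and 3.18, 3.22 and 3.17 in the TTC33 knock-down (1.45 ± 0.15, adjusted p = 0.000515), and was called with both lines as 1 group of 6 (adjusted p = 0.0143). PCDHA11, PCDHA12 and PCDHAC1 share their constant exons, so their counts are not independent, and the 3 differed between lines, with 1.88 in the TTC33 and 0.43 in the CCDC97 knock-down for PCDHA11 and 1.60 and 0.47 for PCDHAC1. PCDHA11 lost its call without control replicate 2 and PCDHAC1 without any 1 control. Without a library the number ran from 1 to 6.

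Neuronal vesicle and granule genes differed in size between the lines. Of 42, 12 were called, 7 of them higher in all 6 libraries (16.7%) and none lower in all 6, and all 7 differed between the lines. The median log2 fold change was 0.69 in the TTC33 and 0.03 in the CCDC97 knock-down. SYP, synaptophysin of the synaptic vesicle membrane, stood at 12.2, 14.2 and 14.2 CPM in controls, 19.9, 17.8 and 16.7 in the CCDC97 and 54.3, 66.9 and 68.7 in the TTC33 knock-down. All libraries were above control, by 0.42 in the CCDC97 (adjusted p = 0.0636) and 2.23 in the TTC33 line. CHGB, chromogranin B, had 0.34 and 2.51, with CCDC97 knock-down libraries at 3.18, 2.94 and 3.58 CPM overlapping the control values of 2.71, 1.66 and 3.33. UNC13A, SCG3, RAB3C, PCSK1 and INA complete the 7. INA is an intermediate filament gene counted in this list and is also among the HEK293 line markers. Leaving out a library gave 6 to 9.

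Axon guidance genes gave 8 higher of 59 (13.6%) and none lower, with a median of 0.04. EPHA4, an ephrin receptor, stood at 55.3, 55.1 and 57.7 CPM in controls, 71.8, 81.1 and 73.7 in the CCDC97 and 76.5, 76.5 and 74.0 in the TTC33 knock-down (0.43 ± 0.06, adjusted p = 0.00389). Its change was 0.43 in both lines (interval of the difference -0.15 to 0.16), and it was called with the lines as 1 group of 6 (adjusted p = 0.0395). SLIT2, a secreted repellent, stood at 454, 456 and 462 CPM in controls, 555, 501 and 544 in the CCDC97 and 647, 682 and 697 in the TTC33 knock-down (0.39 ± 0.06, adjusted p = 0.00373), a graded pattern with no overlap of the 3 groups. ROBO1, the receptor of SLIT2, NRP1, EFNB2, SEMA6A and UNC5C were called at 0.21 to 0.30, and EPHA5, at 0.47, 0.19 and 0.25 CPM in controls, at 2.22 ± 0.29 (adjusted p = 0.0027). Its log2 fold change was 3.32 in the TTC33 and 1.12 in the CCDC97 knock-down, of which the second did not pass (adjusted p = 0.111). The number ran from 3 to 8 without a library.

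Genes of the protein synthesis machinery and mitochondria differed in how far the lines shared them. Of 79 cytosolic ribosomal protein genes, 5 were higher (6.33%) and none lower, with a median of 0.07 in the TTC33 and 0.29 in the CCDC97 knock-down. RPSA stood at 741, 766 and 778 CPM in controls, 1044, 1241 and 1083 in the CCDC97 and 796, 815 and 788 in the TTC33 knock-down (0.31 ± 0.06, adjusted p = 0.0199; 0.00159 for the difference between lines). RPL32 and RPS24 had a like order, with 0.50 and 0.42 in the CCDC97 against 0.11 and 0.15 in the TTC33 knock-down. In the TTC33 line alone RPSA, RPL32 and RPS24 did not pass (adjusted p = 0.536, 0.371 and 0.198 by edgeR). Ribosomal protein genes have many processed copies that can share reads. RPSA lost its call without any control or TTC33 replicate 2, and RPL32 and RPS24 in 5 and 7 of the 9 fits. The number of higher genes was 0 to 32 without 1 library, and 39 without replicate 1 of both lines. Over all tested genes the number higher was 57 to 1045 and 1752 in these fits.

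Of 13 mRNAs encoded in the mitochondrial genome, 6 were higher (46.2%) and none lower, with medians of 0.31 in the mean and 0.36 in each line. MT-ND1, a complex I subunit, stood at 1647, 1698 and 1844 CPM in controls, 2756, 2490 and 2757 in the CCDC97 and 2332, 2621 and 3305 in the TTC33 knock-down (0.65 ± 0.10, adjusted p = 0.0058). All 6 libraries lay above all controls, which the choice of MT-ND1 fixes, and MT-ND2 (0.61 ± 0.10, adjusted p = 0.0072), MT-ATP6 of the ATP synthase (0.37 ± 0.07, adjusted p = 0.0151) and MT-CYB (0.37 ± 0.07, adjusted p = 0.0164) did the same. MT-ND1 and MT-ND2 lost the call without control replicate 1 or 2, MT-ATP6 and MT-CYB without any 1 control, and the number ran from 0 to 9. The mitochondrial ribosomal RNAs varied far more between replicates, with MT-RNR2 at 18.1 to 940 CPM in controls and 138 to 9454 in the CCDC97 knock-down. Nuclear copies of mitochondrial DNA can share these reads. The part of this spread in the change of the mitochondrial mRNAs was not tested.

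The RNA of the signal recognition particle, which targets secreted proteins to the endoplasmic reticulum, was also higher. RN7SL3 stood at 83.1, 79.9 and 79.6 CPM in controls, 196, 124 and 113 in the CCDC97 and 163, 211 and 279 in the TTC33 knock-down (1.13 ± 0.19, adjusted p = 0.00949). RN7SL1 stood at 2721, 2440 and 2611 CPM, 5219, 3203 and 2904, and 3786, 4965 and 5964 (0.73 ± 0.18, adjusted p = 0.0489). Both are near-identical copies, so they are 1 observation, and the knock-down libraries spread more widely than the controls. RN7SL3 lost the call without any 1 control and RN7SL1 in 6 of 9 fits. A copy of the nucleolar U3 RNA (ENSG00000212195) rose by 0.74 ± 0.14 (adjusted p = 0.0146), also lost without any 1 control; other copies have the same name.

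**Figure D3:**
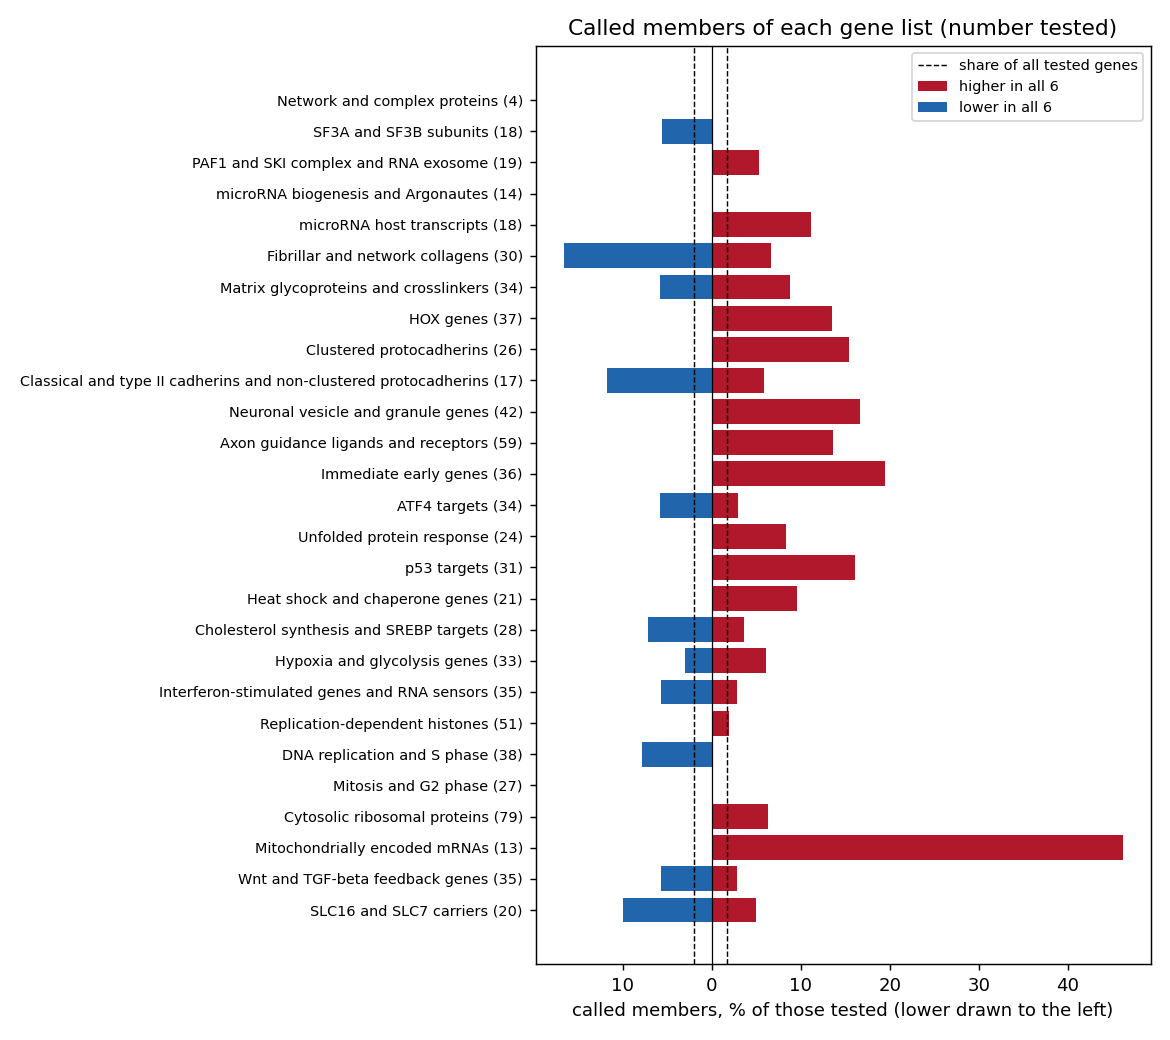
Share of the tested members of each gene list (number in brackets) called and higher (right, red) or lower (left, blue) in all 6 microRNA-expressing libraries, in percent (x axis); dashed lines mark the share of all tested genes, 1.72% higher and 1.98% lower. Mitochondrially encoded mRNAs and immediate early genes have the highest shares on the right and collagens on the left.

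Of 18 SF3A, SF3B and associated splicing genes, 1 was lower (5.56%) and none higher. The number higher was 0 to 3 without 1 library, 2 by DESeq2, 5 with the GC correction and 4 without replicate 1 of both lines, while 1 was lower in each of these. Over all tested genes the number higher was 57 to 1045, 601, 1725 and 1752 in the same order. The lower gene was U2AF1, the small subunit of the factor that recognises the 3' splice site, at 6.49, 6.69 and 6.4 CPM in controls, 3.78, 3.76 and 4.01 in the CCDC97 and 4.91, 4.47 and 4.7 in the TTC33 knock-down (-0.62 ± 0.08, adjusted p = 0.00293). It lies on chromosome 21 and has a near-identical annotated copy, U2AF1L5, with which its reads may be shared. Of 19 genes of the PAF1 and SKI complexes and the RNA exosome, EXOSC7 was called, higher (5.26%). The number higher was 0 to 1 without 1 library, 4 with the GC correction and 6 without replicate 1 of both lines.

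Of 38 genes of DNA replication and S phase, 3 were lower (7.89%) and none higher, with 1 to 4 lower without 1 library. DONSON, a factor in replisome assembly, fell by 0.92 ± 0.06 (adjusted p = 4.27e-05), from 88.1, 89.7 and 86.7 CPM to 30.9, 33.7 and 36.9 in the CCDC97 and 66.2, 62.6 and 64.5 in the TTC33 knock-down, and lies on chromosome 21, where it shares 307 exon bases with SON on the other strand. GINS1 of the replicative helicase fell by 0.43 and TYMS, thymidylate synthase, by 0.27 (adjusted p = 0.0195 and 0.0174), each lost without any 1 control. Neither passed in the CCDC97 line alone (adjusted p = 0.14 and 0.0693 by edgeR). TYMS shares 967 exon bases with ENOSF1 on the other strand. None of 27 genes of mitosis and G2 phase was called by edgeR, where 6 had an unadjusted p under 0.05, or by DESeq2. Their number higher was 0 to 3 without 1 library, 7 with the GC correction and 9 without replicate 1 of both lines. Over all tested genes the number higher was 57 to 1045, 1725 and 1752 in the same order. Replication-dependent histones gave 1 higher of 51 (1.96%), but 0 to 16 without 1 library and 18 without replicate 1 of both lines. Unfolded protein response genes gave 2 of 24 (8.33%), with 0 to 2 without 1 library and 5 without replicate 1 of both lines. Targets of ATF4 gave 1 higher (2.94%) and 2 lower (5.88%) of 34, with 0 to 3 and 1 to 4 without 1 library. Cholesterol genes gave 1 higher (3.57%) and 2 lower (7.14%) of 28, with 0 to 1 and 1 to 6. Hypoxia and glycolysis genes gave 2 higher (6.06%) and 1 lower (3.03%) of 33, with 0 to 3 each way. Interferon-stimulated genes gave 1 higher (2.86%) and 2 lower (5.71%) of 35, with 0 to 2 each way. Feedback genes of Wnt and TGF-beta gave 1 higher (2.86%) and 2 lower (5.71%) of 35, among them SFRP1, with 1 to 2 and 1 to 3. SLC16 and SLC7 carriers gave 1 higher (5%), SLC16A7, and 2 lower (10%) of 20, with 0 to 1 and 0 to 4. Unclustered cadherins gave 1 higher (5.88%) and 2 lower (11.8%) of 17, with 0 to 2 and 1 to 3. These ranges are over the 9 fits without 1 library.

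The genes lowered in both lines were unevenly spread over the genome, which was examined after the values had been seen. Among 11515 genes of at least 5 CPM, 288 (2.5%) were called and lower in all 6 libraries and 201 (1.75%) higher. Chromosome 21 held 114 of these genes and 52 of the 288, so that 45.6% of its genes were called lower, against 2.07% outside it, and none was called higher. The next shares were 6.11% on chromosome 18 (11 of 180 genes, LAMA1 and TYMS among them), 5.47% on chromosome 14 (21 of 384) and 4.21% on chromosome 8.

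The median log2 difference of the 114 genes was -0.41, -0.46 and -0.43 in replicates 1 to 3 of the CCDC97 line, -0.23, -0.21 and -0.21 in those of TTC33, and between -0.0037 and 0.0044 in controls. The 6 libraries thus agreed within each line, unlike in GC content, and the CCDC97 line was the lower. After correction for GC content and length the medians were -0.41, -0.41 and -0.40 in the CCDC97 and -0.26, -0.25 and -0.25 in the TTC33 knock-down. In the mean 105 of the 114 genes lay below 0, with 106 in the CCDC97 and 96 in the TTC33 knock-down. The direct test between the lines called 40 of the 114, 39 of them lower in the CCDC97 line.

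**Figure D4:**
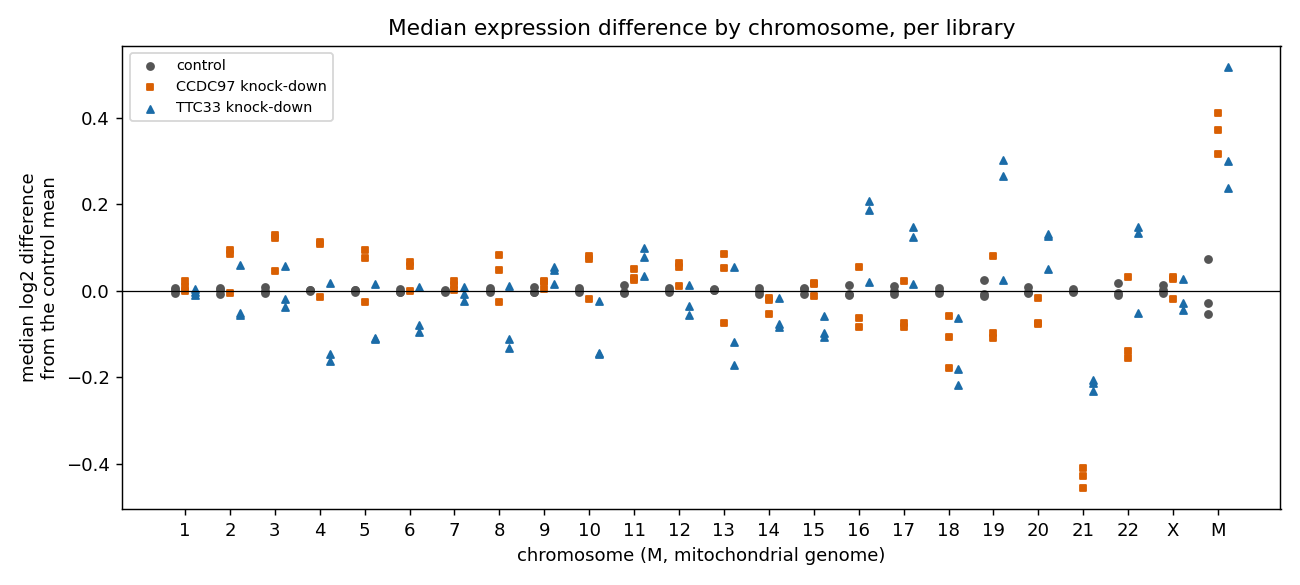
Median log2 difference from the control mean (y axis) over genes of at least 5 CPM on each chromosome (x axis), per library: controls as circles, CCDC97 knock-down as squares and TTC33 knock-down as triangles. All 6 knock-down libraries are lowest on chromosome 21, at -0.46 to -0.41 and -0.23 to -0.21 in the 2 lines, apart from TTC33 replicate 3 on chromosome 18 at -0.22, and highest on the mitochondrial genome (M).

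The shift was also followed along the chromosome. Runs of 20 consecutive genes were compared over the genome, 564 in all, and the 4 runs with the lowest median were the second to the fifth of chromosome 21, from 25880550 to 45226560, with medians of -0.31 to -0.37. The first run of the chromosome, from 8208473 to 25772460, ranked 13 with a median of -0.15, and 1 of its 20 genes was called lower. Its ribosomal RNA and microRNA entries lay above 0 in the mean contrast, from 0.01 (RNA5-8SN3) to 2.86 (RNA5-8SN2), and none was called. Its protein-coding genes all lay below 0, from -0.08 (ATP5PF) to -0.48 (CXADR). The median of this run therefore does not show a weaker shift of its protein-coding genes. GART, a trifunctional enzyme of purine synthesis, stood at 449, 450.4 and 446 CPM in controls, 296, 339 and 321 in the CCDC97 and 365, 349.8 and 338 in the TTC33 knock-down (-0.42 ± 0.06, adjusted p = 0.0027). HMGN1, a nucleosome-binding protein, stood at 496, 493 and 488 CPM in controls, 361, 405 and 396 in the CCDC97 and 387, 393 and 388 in the TTC33 knock-down (-0.34 ± 0.05, adjusted p = 0.00579). Both lay below all controls in every knock-down library, with a narrow spread.

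PSMG1, a proteasome assembly chaperone, and BACE2, a membrane protease, had log2 fold changes of -0.58 ± 0.07 and -0.51 ± 0.06 (adjusted p = 0.00158 and 0.00104), and both were called with the lines as 1 group of 6. RUNX1, a transcription factor of blood formation, had -0.39 ± 0.06 (adjusted p = 0.00758), and APP, the amyloid precursor protein, -0.22 ± 0.05 (adjusted p = 0.0283). The kinase DYRK1A had -0.24 ± 0.07 and the superoxide dismutase SOD1 -0.17 ± 0.07, and neither passed (adjusted p = 0.0686 and 0.208). RUNX1 lost its call without any 1 control, HMGN1 without control replicate 1 or 2, and APP in 5 of the 9 fits. The number of chromosome 21 genes called lower was 17, 16 and 20 without control replicate 1, 2 or 3, 56, 41 and 41 without CCDC97 knock-down replicate 1, 2 or 3, and 75, 36 and 43 without TTC33 knock-down replicate 1, 2 or 3. It was 76 without replicate 1 of both lines, 78 with the GC correction and 5 with both lines as 1 group of 6, while the median in the mean contrast stayed between -0.30 and -0.34 in these fits. In the main fit 52 genes of chromosome 21 were called lower, and 362 of all tested genes. The total over all tested genes was 1704 without replicate 1 of both lines, 1510 with the GC correction and 17 with 1 group of 6. It was 61, 65 and 68 without control replicate 1, 2 or 3. Without CCDC97 knock-down replicate 1, 2 or 3 it was 506, 255 and 253, and without those of TTC33 1159, 188 and 249. Chromosome copy number was not measured, and its part in the result was not tested.

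**Figure D5:**
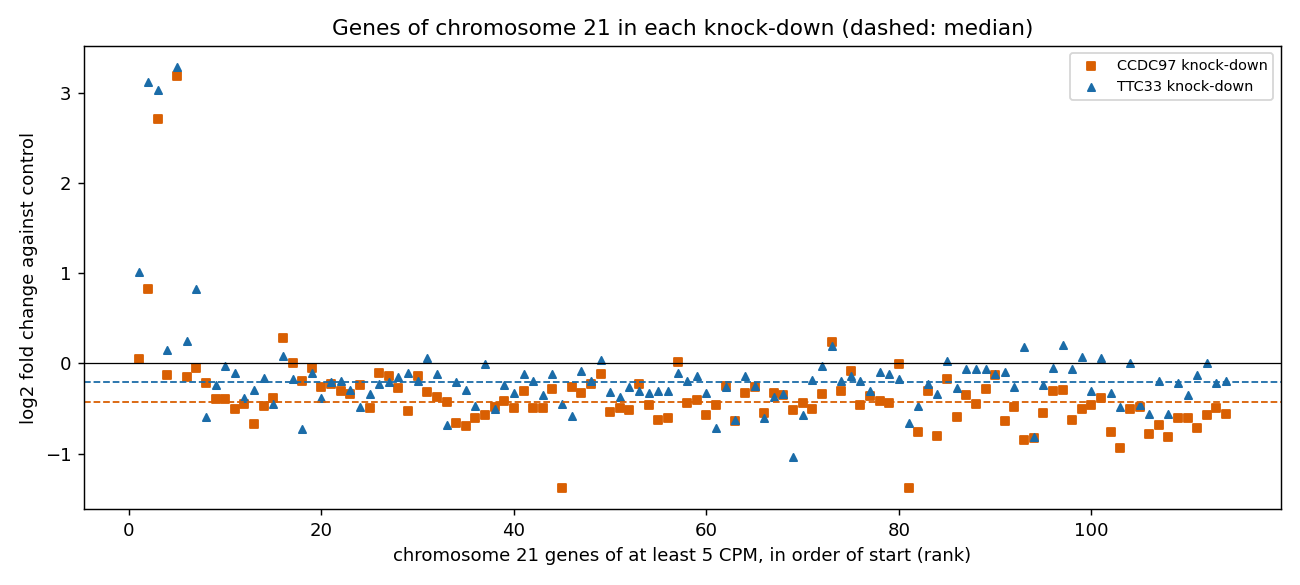
Log2 fold change against control (y axis) of the 114 genes of chromosome 21 of at least 5 CPM in order of their start (x axis, rank), in the CCDC97 (squares) and TTC33 (triangles) knock-downs, with dashed lines at the medians of -0.43 and -0.20; both share the controls. Most genes lie below 0 (106 and 96 of the 114), and the points above 0 at the left are among the first genes of the chromosome. These first genes include ribosomal RNA and microRNA entries.

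The lowest run outside chromosome 21 was on chromosome 14, from 24365673 to 32837681. Its median was -0.30 in the mean contrast, and 7 of its 20 genes were called lower, against 2.5% of all genes of at least 5 CPM. The library medians were -0.33, -0.29 and -0.28 in the CCDC97 and -0.14, -0.29 and -0.33 in the TTC33 knock-down, against -0.01 to 0.01 in controls. STXBP6, described above, is in this run. COCH, an extracellular matrix protein known from the inner ear, stood at 258, 258 and 259 CPM in controls, 179, 193 and 188 in the CCDC97 and 212, 192 and 183 in the TTC33 knock-down (-0.44 ± 0.06, adjusted p = 0.00271). AKAP6, an anchoring protein for protein kinase A, fell by 0.55 (adjusted p = 0.0164) and lost the call without any 1 control. Chromosome 18 was lower along its length, and its runs ranked 6 to 43 of the 564. Of its 180 genes, 146 lay below 0 in the mean contrast, with a median of -0.14. Library medians were -0.18, -0.11 and -0.06 in the CCDC97 and -0.06, -0.18 and -0.22 in the TTC33 knock-down. After the GC correction they were -0.144, -0.135 and -0.119, and -0.09, -0.11 and -0.11. A cause was not tested.

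Genes called higher were more frequent on chromosome 3, where 36 of 649 (5.55%) were called, against 1.75% of all genes of at least 5 CPM. Of these, 29 start before 91 Mb, among 323 genes, and 7 after it, among 326. The median difference of the first group was 0.17, 0.17 and 0.17 in the CCDC97 and 0.05, 0.02 and 0.02 in the TTC33 knock-down. After 91 Mb it was -0.06, 0.08 and 0.07 in the CCDC97 and 0.07, -0.08 and -0.08 in the TTC33 knock-down. The shift before 91 Mb was thus plain in the CCDC97 line only. In the TTC33 line the medians were small, and replicate 1 was higher after 91 Mb than before it. LSM3, a spliceosomal Sm-like protein, stood at 69.7, 71.7 and 71.8 CPM in controls, 97.5, 111 and 105 in the CCDC97 and 87.6, 92.8 and 94.1 in the TTC33 knock-down (0.46 ± 0.06, adjusted p = 0.00293). THRB, the thyroid hormone receptor beta, rose by 0.41 ± 0.07 (adjusted p = 0.00949). Both lay above all controls in every knock-down library, and THRB lost its call without any 1 control. EXOSC7, RPSA, RPL32 and the guidance receptor ROBO1 lie in the same part of the chromosome.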

How the data were processed

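The deposited values are raw counts of reads per gene in 9 libraries. Per the submitters' processing notes the authors used Trimmomatic 0.39, HISAT2, HTSeq 2.0.1 and GRCh38; for annotation release and strand setting, not given in the sources used here. The larger table of each library (R12) was used; the U table held 6.55% to 11.9% of both together, and no source says what it counts. Rows that name no gene held 33.4% to 57.9% of R12 counts and were left out. Counts of 60664 genes were filtered with filterByExpr, scaled by TMM and fitted in edgeR 4.0.16 (R 4.3.3) with a term per group over all 9 libraries, a common biological coefficient of variation of 0.109 and 6 residual degrees of freedom. The contrast was the average of both knock-down groups less control, and p-values were adjusted by Benjamini-Hochberg over all 18299 tested genes. Directions used log2 CPM with a prior count of 2. Each line against control, and the lines against each other, came from the same fit. Intervals are 95% intervals from the fit's total degrees of freedom. Genes were named by rule: the 4 proteins of the study; the 12 higher and 12 lower called genes of at least 5 CPM, with all 6 libraries beyond all controls, whose smaller single-line change was largest; the 3 smallest adjusted p of each list with at least 3 calls in 1 direction; and 3 genes each way of mixed direction. Genes outside it, and the chromosomes, were chosen after their values were seen. The members and lists were chosen with earlier results of these data known. Coordinates are from GENCODE 29 on GRCh38. Alternatives included DESeq2 1.42.0, other scalings and filters, and leaving out each library. The code was tested on simulated data.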

Additional observations from a re-analysis of the deposited data

Results flagged for a closer look

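Of all tested genes, 3943 (21.5%) passed the direct test between the lines. Among the genes whose values per library were examined for the report, 31 did so, and their log2 differences (TTC33 less CCDC97) follow, whatever their change in the mean contrast. No cause was examined. Of the proteins under study, TTC33 had -2.54, CCDC97 2.37 and WDR61 -0.29. Among the genes raised most in both lines, UNC13A had 2.94, SCG3 2.58, DNAH17 0.60, FAM71E1 -1.47 and MIR222HG -0.92. CBS, lowered in both, had 0.72.

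Among genes of the lists, the neuronal SYP had 1.80, CHGB 2.18, CPLX1 2.19 and CPLX2 3.10. The adhesion and guidance genes PCDHA11, PCDHAC1, EPHA5, SLIT2 and NECTIN3 had 1.45, 1.13, 2.21, 0.34 and 0.86. HOXC11 had -0.97 and HOXA10 -0.24, EGR1 1.02, and the ribosomal protein genes RPSA, RPL32 and RPS24 -0.49, -0.39 and -0.26. On chromosome 21, DONSON had 0.93 and RUNX1 0.25, both lower in the CCDC97 line. MIR22HG had 0.70 and COL5A2 -1.35. Of genes without a common direction, LINC00632 had 3.25, CYB5R3 2.73 and FAM3C -1.75.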

How the results depend on the processing

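The count of 809 genes, 315 higher and 362 lower in all 6 libraries, with 235 that differed between the lines, stayed within 1.5 times under DESeq2 size factors, upper-quartile factors, a minimum mean of 5 CPM and the sum of both count tables. Without a filter on low counts 1878 genes were called, 812 lower, and 386 differed. The DESeq2 Wald test gave 1496, with 601 higher, 598 lower and 358 different. With GC content and length offsets, chosen after seeing the data, 4093 were called, 1725 higher and 1510 lower, and 935 differed. Leaving out replicate 1 of both knock-downs gave 6262, 1752, 1704 and 1762. Treating both knock-downs as 1 group of 6 gave 35, 18 higher and 17 lower. Leaving out 1 library gave 143 to 3525 called, 57 to 1045 higher, 61 to 1159 lower and 72 to 897 different. The causes of these differences were not tested.

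Correlations of deviations from the group means did not settle whether replicate numbers pair the samples. Same-numbered libraries of the 2 knock-downs had correlations of -0.50, -0.11 and -0.14, and differently numbered ones -0.27 to 0.37. Same-numbered control and knock-down libraries had -0.03 to 0.09, and differently numbered ones -0.08 to 0.06. The replicate block gave 243 genes, 105 higher and 103 lower, with 99 different, and with GC content and length offsets, added after seeing the data, 3701, 1593, 1358 and 833. Of 1671 values of single genes under alternatives, 1446 kept direction and side of the threshold, 217 lost the call and 7, all of DYRK1A, gained it. The direction turned once: WDR61, never called, had -0.0203 without CCDC97 knock-down replicate 2 and -0.0203 to 0.0713 over the fits without 1 library. Counts limit precision for genes of a few CPM, and 2872 genes of 1 direction were too low to test.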

Other observations

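With both lines treated as 1 group of 6, so that the spread between lines counts as error, 35 genes passed. Besides genes named in the report they held RAB17, a small GTPase of epithelial traffic (-1.32), PNMA2 (-0.50) and MCM3AP-AS1 (-0.68) among the lower, and ABCA8, a lipid transporter (2.07), PPFIA2, the active zone protein liprin-alpha-2 (1.52), SPTLC3, a serine palmitoyltransferase subunit (1.34), CHSY3, a chondroitin synthase (1.09), and NCKAP5 (0.58) among the higher, all as log2 fold changes. Their adjusted p from edgeR's quasi-likelihood test in that fit were 0.0395, 0.0491, 0.0372, 0.0136, 0.0264, 0.0395, 0.0395 and 0.0259 in the same order. Abundance was low for RAB17, SPTLC3, PPFIA2 and ABCA8, with means of 0.69, 0.66, 1.33 and 1.67 CPM. On chromosome 21, LINC01694 was lower by 1.26 (mean 1.83 CPM, adjusted p = 0.0152 by the same test). A gene without a symbol there, ENSG00000277693, was higher by 2.30 (mean 2.01 CPM, adjusted p = 0.000101 by the same test). These genes were chosen after their values were seen.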
